A study of Mus musculus with 24 samples.

Results

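The Cd300 genes encode immune receptors with an extracellular immunoglobulin-like domain that sit mainly on myeloid cells such as macrophages, monocytes, dendritic cells and mast cells. The family is paired: some members carry inhibitory tyrosine motifs (ITIMs) that recruit the phosphatases SHP-1 and SHP-2, and others have short tails and signal through adaptors with activating motifs, DAP12 (Tyrobp) and the Fc receptor gamma chain (Fcer1g). Several bind lipids exposed by dying cells, among them phosphatidylserine and ceramide, and Cd300lg departs from the rest because it is found on endothelium of small vessels. In the mammary gland such receptors can be carried by the macrophages around ducts and fat, and Cd300lg by the capillaries.

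The expression of 8 Cd300 genes was described in mouse mammary gland: Cd300lf, Cd300a, Cd300ld, Cd300lb, Cd300c2, Cd300e, Cd300ld3 and Cd300lg. They were taken by symbol from a table of 55487 genes. The family was selected on the TPM of Cd300ld3, which differed between tamoxifen and letrozole samples of the same table, so that difference is a description here and is not tested. The table held 4 further Cd300 symbols, Cd300c, Cd300ld2, Cd300ld4 and Cd300ld5, which are named where a member shares sequence or pattern with them. Of the 8 members 7 reached 1 TPM (transcripts per 1000000 in the library, a level corrected for transcript length) in at least 3 samples and could enter the tests. Cd300e did not, and Cd300ld3 did so only through the 4 samples in which it was high.

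RNA was sequenced from 24 mammary gland samples in 8 groups of 3, called biological replicates in the labels. Mice of the CYP19A1 line had the genotype MMTV-rtTA/tet-op-CYP19A1, and mice of the Esr1 line MMTV-rtTA/tet-op-Esr1, so that in both lines an inducible activator under the MMTV promoter, which is active mainly in mammary epithelium, drives a transgene for aromatase (CYP19A1) or for oestrogen receptor alpha (Esr1). In each line, mice of 20 months with 8 months of transgene induction carried a subcutaneous tamoxifen pellet (25 mg released over 60 days) or letrozole pellet (2.5 mg over 60 days) for the last 2 months, or had no treatment in the labels, and a further group was taken at 18 months after 6 months of induction. Letrozole inhibits aromatase, and tamoxifen binds the oestrogen receptor and blocks or mimics oestrogen depending on the tissue. The untreated 20-month samples bear the tag PLA in their descriptions, which the labels do not explain. The descriptions of the 18-month samples bear the tag Doxy, read here as doxycycline, where their titles give 6 months of transgene induction. Descriptions of the 20-month samples do not bear it. All mice carried a transgene, so the lines can be set against each other but not against wild-type mice.

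Read depth is unknown because TPM keeps none, and 14410 to 17684 genes reached 1 TPM per sample. Ribosomal RNA models took a median of 0.0558% of the TPM but over 1% in 3 samples: 31.2% in the untreated 20-month Esr1 replicate 2, 3.6% in replicate 3 of that group and 3.24% in Esr1 tamoxifen replicate 2. The skeletal muscle gene Acta1 ranged from 6.51 to 7084.55 TPM, so the tissue sampled held variable muscle. Mouse Esr1 had 12.18 to 19.19 TPM in the CYP19A1 line and 6.98 to 17.41 TPM in the Esr1 line, and this range does not separate the lines. Mouse Cyp19a1 stayed at or under 0.27 TPM in both lines. These are mixed tissues, and a lower value can come from fewer cells of a type or from less RNA per cell, which cannot be told apart.

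By RefSeq (assembly GRCm38.p6, the build called mm10 in the submitters' processing notes), 11 Cd300 genes lie within 246 kb of chromosome 11, from 114889152 to 115135372. Cd300a is at the low-coordinate end and Cd300lf at the other. Cd300ld3 spans 115042104 to 115048419, beside Cd300ld5 at 115031447 to 115037780. Cd300lg is 12.8 Mb away on the same chromosome, at 102041511 to 102055617. The RefSeq span of Cd300ld4, 115003951 to 115027070, encloses Cd300ld2 and overlaps the high-coordinate end of Cd300c2, at 115004261. No source used here says how reads in such overlaps or in near-identical copies were assigned, and the levels of Cd300ld2, Cd300ld3, Cd300ld4 and Cd300ld5 are uncertain.

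The promoter windows (250 bases before to 50 after the start given by RefSeq, GRCm38.p6, all on the minus strand) are shown for Cd300ld3 and its closest relative because these genes were high in the same samples, as described next. Capitals in the first pair mark the 15 bases that differ between them, and the window of Cd300ld5 is identical to that of Cd300ld4 over all 300 bases.
Cd300ld3, chr11:115048281-115048580: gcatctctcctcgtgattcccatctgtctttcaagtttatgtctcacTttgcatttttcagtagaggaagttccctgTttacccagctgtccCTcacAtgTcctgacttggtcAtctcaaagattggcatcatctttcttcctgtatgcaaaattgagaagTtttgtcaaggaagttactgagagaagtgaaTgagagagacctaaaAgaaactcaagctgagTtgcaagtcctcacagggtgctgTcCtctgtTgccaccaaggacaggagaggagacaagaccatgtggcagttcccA
Cd300ld4, chr11:115026884-115027183: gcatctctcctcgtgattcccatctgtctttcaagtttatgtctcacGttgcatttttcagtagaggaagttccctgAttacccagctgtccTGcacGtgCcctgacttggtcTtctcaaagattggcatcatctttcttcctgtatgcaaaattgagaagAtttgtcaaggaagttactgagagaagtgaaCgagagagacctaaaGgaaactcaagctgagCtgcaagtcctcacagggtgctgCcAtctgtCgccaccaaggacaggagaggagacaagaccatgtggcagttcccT
Both hold GAGGAAGT, a form of the core bound by ETS factors such as PU.1, a regulator of myeloid genes, starting at -187 relative to the start. The windows of Cd300ld and Cd300lf, in which capitals mark the same core, show where it stands in the members outside that group.
Cd300ld, chr11:114989837-114990136: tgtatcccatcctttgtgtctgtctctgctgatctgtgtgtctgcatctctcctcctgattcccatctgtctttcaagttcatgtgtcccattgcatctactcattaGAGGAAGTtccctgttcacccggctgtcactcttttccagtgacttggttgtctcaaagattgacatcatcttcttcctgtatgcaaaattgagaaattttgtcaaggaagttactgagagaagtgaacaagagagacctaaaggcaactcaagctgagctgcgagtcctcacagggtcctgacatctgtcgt
Cd300lf, chr11:115133943-115134242: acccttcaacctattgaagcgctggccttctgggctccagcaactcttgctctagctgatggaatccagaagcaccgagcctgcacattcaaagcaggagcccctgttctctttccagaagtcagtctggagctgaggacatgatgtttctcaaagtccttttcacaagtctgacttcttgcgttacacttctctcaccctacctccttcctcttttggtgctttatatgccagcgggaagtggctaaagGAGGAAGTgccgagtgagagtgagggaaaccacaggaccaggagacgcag

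Over their alignable 258 bases the windows of Cd300ld3 and Cd300ld were 86.4% identical, while Cd300ld3 and Cd300ld4 were 95.0% identical over 300 bases. With both strands searched, GAGGAAGT occurred in 5 of the 10 Cd300 promoter windows in the RefSeq table (Cd300ld, Cd300ld3, Cd300ld4, Cd300ld5 and Cd300lf) and in 3.2% of all 32851 windows. The motif was chosen after these promoters had been read, and 4 of the 5 windows are near copies of one another, so the share is a description. AGGTCA, the repeated unit of the oestrogen response element, occurred in 1 of the 10 windows, that of Cd300c2, and in 16.3% of all windows. A match is a string of letters in this window and not a measured binding site. Cd300lg and Cd300ld2 are named here without a promoter sequence.

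**Figure D1:**
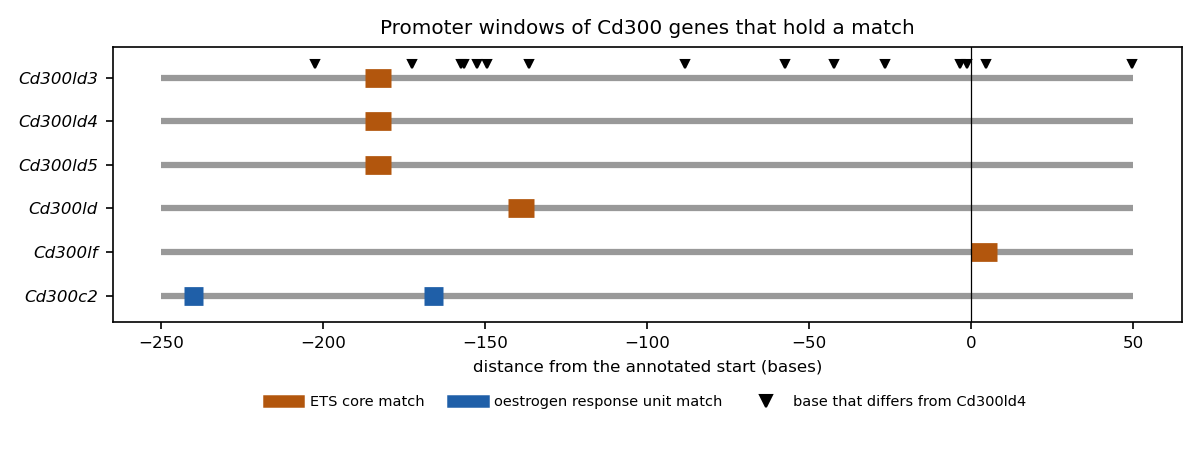
Positions of the motif matches in the promoter windows of the 6 Cd300 genes that hold one, drawn by distance from the annotated start in bases, with black triangles at the 15 positions where Cd300ld3 differs from Cd300ld4. The ETS core (orange) stands at the same place in Cd300ld3, Cd300ld4 and Cd300ld5, nearer to the start in Cd300ld and at the start in Cd300lf, and both AGGTCA matches (blue) are in Cd300c2.

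Cd300ld3, the member that led to the choice of the family, was close to absent in 20 of the 24 samples and stood out in 4. In Esr1 mice, its level was 0.13, 0 and 2.32 TPM under tamoxifen, against 5.47, 4.47 and 3.73 TPM under letrozole. Every letrozole sample was above every tamoxifen sample, and a single tamoxifen sample, replicate 3, was well above the other two. In CYP19A1 mice, it was 0.11, 0.06 and 0.05 TPM under tamoxifen, against 0, 0.05 and 0.05 TPM under letrozole, and the groups overlapped. The difference of tamoxifen minus letrozole was -1.83 on the log2(TPM + 1) scale in the Esr1 line and 0.05 in the CYP19A1 line. In the untreated 20-month groups the level was 0.18, 0.10 and 0.05 TPM in CYP19A1 mice and 0.18, 0 and 0.15 TPM in Esr1 mice, and at 18 months it was 0.09, 0.05 and 0.13 TPM in CYP19A1 mice and 0.13, 0.16 and 0.20 TPM in Esr1 mice. No sample outside the 4 exceeded 0.2 TPM, and none lay between 0.2 and 2.32 TPM.

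The relatives with near-identical promoters were high in the same samples. Cd300ld4 had 0, 0 and 0.54 TPM in Esr1 tamoxifen samples, against 1.89, 1.21 and 1.01 TPM in Esr1 letrozole samples, and was listed at 0 in the other 18. Cd300ld5 had 0, 0 and 1.44 TPM in Esr1 tamoxifen samples, against 1.76, 0.66 and 0.33 TPM in Esr1 letrozole samples, and was also listed at 0 in those 18. The ribosomal protein gene Rps2, on chromosome 17, followed the same samples with 144.45 to 172.27 TPM in the 4 and at most 11.66 TPM in the other 20. In all, 16 genes had at least 0.3 TPM in each of the 4 samples and over 3 times the highest of the others in each. Cd300ld3 is counted among them, and because it defined the 4 samples its place was fixed in advance. They included 3 Cd300 genes and 7 pseudogenes, and 6 of the 10 placed by RefSeq, the Cd300 genes included, were on chromosome 11. That chromosome holds 8.01% of the tested genes so placed, but some of the 16 were under the low-level filter of the tests. No gene showed the inverse pattern. This rule was set after the values were seen, and what sets the 4 samples apart was not tested.

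**Figure D2:**
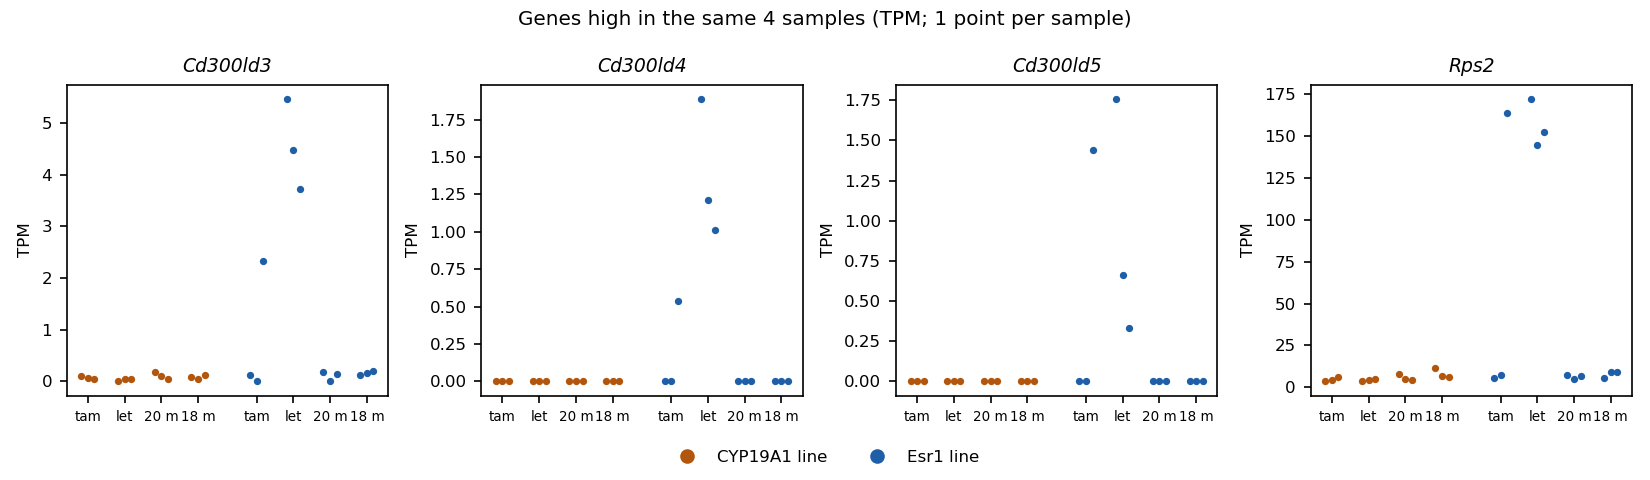
TPM of Cd300ld3, Cd300ld4, Cd300ld5 and Rps2 in each sample, 1 point per sample, with the CYP19A1 line in orange on the left and the Esr1 line in blue on the right of each panel (tam, tamoxifen; let, letrozole; 20 m, untreated at 20 months; 18 m, 18 months). The 3 Esr1 letrozole samples and 1 Esr1 tamoxifen sample are high in every panel, and the other 20 lie near 0 on each axis.

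No other member had that pattern. Between tamoxifen and letrozole in the Esr1 line, Cd300ld3 was the 1 of the 7 members over the low-level filter whose groups did not overlap, and 18.7% of all genes tested had groups that did not overlap in either direction. In the CYP19A1 line it was Cd300ld, with 2.31, 2.02 and 2.33 TPM under tamoxifen, against 1.42, 2.00 and 0.61 TPM under letrozole, where 24.4% of all genes had groups apart. This comparison chose the family, and nothing is read from those counts. For the other comparisons the share of all genes with groups apart was not counted. Where groups are said below not to overlap, this describes the values only. The differences of the other members, tamoxifen minus letrozole, ran from -0.35 (Cd300ld) to 0.44 (Cd300lf) on the log2 scale in the Esr1 line.

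In the 12 untreated samples, where the rule used no value, Cd300ld3 was at or under 0.2 TPM throughout. It entered the fit only through the drug-treated samples in which it was high, so no test of it between untreated groups is given.

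The members spanned a wide range of levels. Cd300lg was the most abundant member in all 8 groups, with 28.9 ± 9.5 TPM over the 24 samples (SD). Cd300c2 came next in 6 groups and averaged 3.16 ± 1.19 TPM, followed over all samples by Cd300a at 2.52 ± 1.21, Cd300ld at 1.99 ± 0.79, Cd300lb at 1.84 ± 0.64 and Cd300lf at 1.24 ± 0.60 TPM. Cd300e, a receptor of monocytes, averaged 0.25 ± 0.13 TPM and never passed 0.62 TPM. When the members were ordered by mean level within each group, the ranges of 37 of the 56 neighbouring pairs overlapped. Cd300lg was above its neighbour in every sample of all 8 groups. The order among Cd300c2, Cd300a, Cd300ld and Cd300lb changed from group to group, and of their neighbouring pairs only Cd300c2 and Cd300a in CYP19A1 mice at 18 months had ranges apart. In Esr1 letrozole samples Cd300ld3 took second place, at 4.56 ± 0.87 TPM (n = 3), above every sample of Cd300ld.

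**Figure D3:**
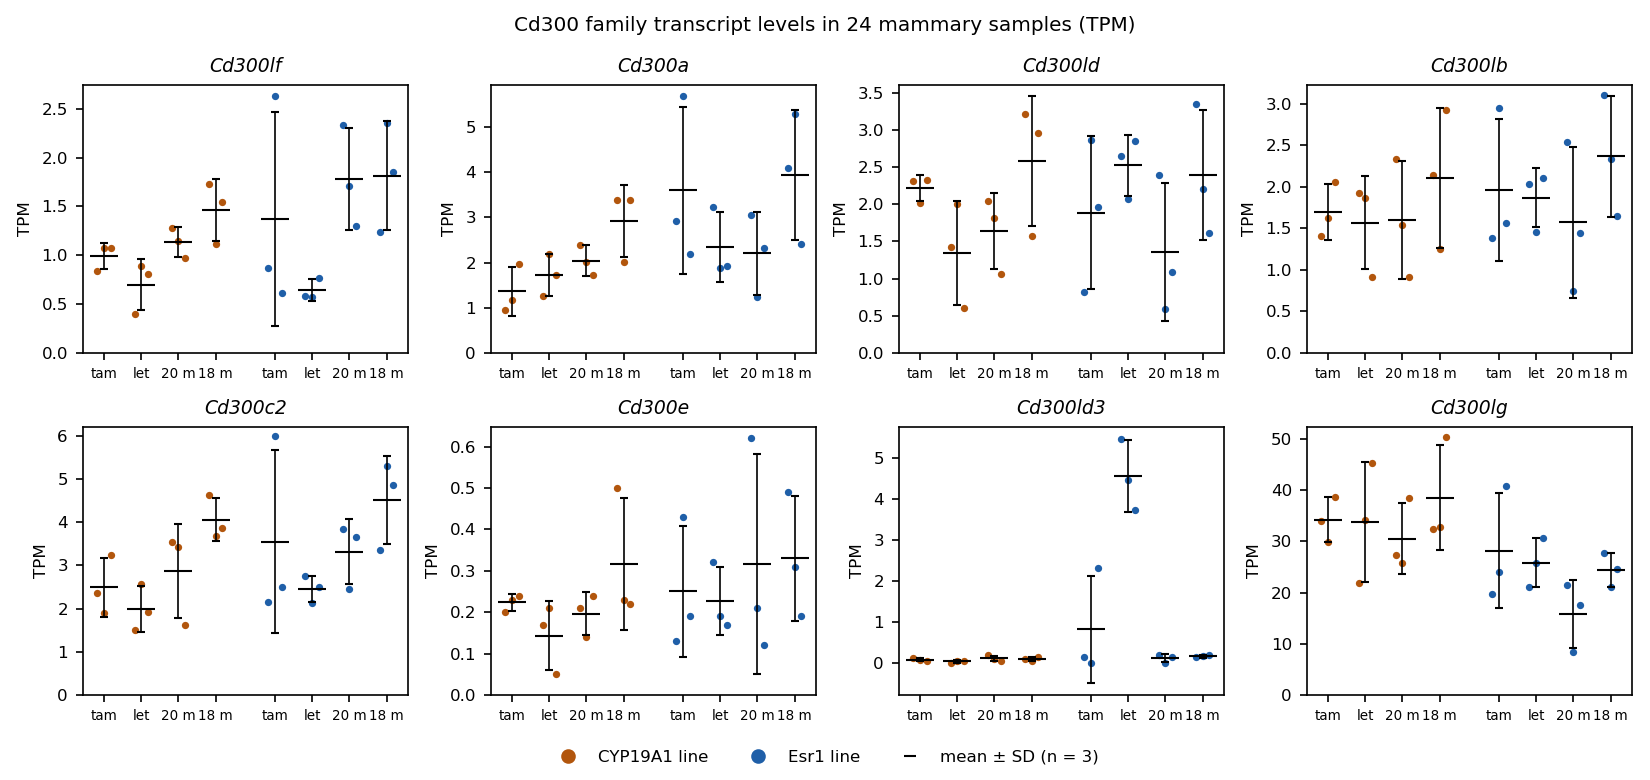
TPM of the 8 members in each sample (points), with group means and SD (black, n = 3), with the CYP19A1 line in orange on the left and the Esr1 line in blue on the right (tam, tamoxifen; let, letrozole; 20 m, untreated at 20 months; 18 m, 18 months); each panel has its own axis. Cd300lg reaches 50.38 TPM, the leukocyte members stay under 6 TPM with wide overlap between groups, and Cd300ld3 is high in the Esr1 letrozole group and 1 Esr1 tamoxifen sample.

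The inhibitory receptors were Cd300lf and Cd300a. Cd300lf, an ITIM receptor that binds ceramide and is the entry receptor of murine norovirus, was lower in letrozole samples of Esr1 mice. It had 0.58, 0.57 and 0.77 TPM in letrozole samples, against 2.33, 1.71 and 1.3 TPM in untreated samples of the same age. The groups did not overlap, and the difference was -0.75 ± 0.23 on the log2(TPM + 1) scale (SE, n = 3 per group, limma adjusted p = 0.048). Cd300lf was the 1 of 6 members tested that passed here, where 8.65% of all genes did. In CYP19A1 mice it had 0.40, 0.89 and 0.81 TPM in letrozole samples, against 1.28, 1.15 and 0.97 TPM in untreated samples, again with no overlap, but the difference of -0.34 ± 0.23 did not pass (limma adjusted p = 1). The letrozole effect did not differ detectably between the lines (0.41 ± 0.33, CYP19A1 minus Esr1, limma adjusted p = 0.64). All 3 Esr1 letrozole samples are among the 4 samples high in Cd300ld3, and no untreated sample is. Letrozole therefore cannot be told apart here from whatever sets those samples apart. Esr1 tamoxifen replicate 3, the remaining one of the 4, had 0.61 TPM of Cd300lf. The same limit holds for the other members in this comparison, and for the lines compared under letrozole.

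The call for Cd300lf was close to the threshold. It was lost, with differences of -0.80 to -0.61, without any 1 of the 3 letrozole samples (limma adjusted p = 0.086 to 0.15), without untreated replicate 1 (0.10) or 2 (0.092), and with the replicate number as a block (0.053). Without the 3 samples rich in ribosomal RNA, which leaves 1 untreated sample that is assumed to vary like the other groups, the difference was -1.02 (limma adjusted p = 0.039). With tamoxifen the level was 0.84, 1.07 and 1.07 TPM in CYP19A1 mice and 0.87, 2.63 and 0.61 TPM in Esr1 mice, and neither line passed against its untreated group.

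Markers of several cell types differed in the same samples. Of 7 mammary epithelium genes 5 were lower, with Krt8, a luminal keratin, at 26.9 ± 5.7 TPM in letrozole samples against 93.4 ± 12.4 TPM in untreated samples. All 4 T cell genes were lower, as was 1 of 6 monocyte genes, Cx3cr1, the fractalkine receptor, at 0.710 ± 0.151 TPM under letrozole against 2.91 ± 0.37 TPM untreated. None of 10 macrophage genes passed, and 8 of them had positive differences. The summed TPM of the epithelium list was 103 to 175 in letrozole samples and 403 to 550 in untreated samples. The macrophage sum was 381 to 636 in letrozole samples and 415 to 633 in untreated samples, and the monocyte sum 27.7 to 38.7 in letrozole samples and 29.5 to 53.3 in untreated samples. Of these 3 sums, that of the epithelium lay apart between the groups. So did the T cell sum, at 3.71 to 10.4 TPM in letrozole samples and 20.7 to 22.8 TPM in untreated samples. The sum of 5 lymph node venule genes also did, at 5.78 to 10.4 TPM in letrozole samples and 114 to 3460 TPM in untreated samples. Most of the untreated venule sum was Glycam1, which is also a milk protein gene. It had 107.34 to 3457.85 TPM in untreated samples and 0.25 to 0.86 TPM in letrozole samples. Of the 3 venule genes tested 2 were lower, Glycam1 and Madcam1, a vascular addressin (0.197 ± 0.072 TPM under letrozole against 2.66 ± 1.18 TPM untreated). The third, Ccl21a, had a positive difference. The eosinophil gene Prg2 was lower as well, at 1.03 ± 0.17 TPM under letrozole against 5.34 ± 3.15 TPM untreated, and the muscle sum was 22800 to 25700 TPM in letrozole samples and 5010 to 16500 TPM in untreated samples. The adipocyte sum lay narrowly apart, at 2327 to 2572 TPM in letrozole samples and 495.5 to 2318 TPM in untreated samples. All 5 adipocyte genes and all 8 capillary endothelium genes had positive differences, and none of them passed. Over the 24 samples Cd300lf correlated with the epithelium sum at r = 0.836, the venule sum at r = 0.760 and the macrophage sum at r = 0.718 (Pearson, on the log2(TPM + 1) scale, as for every correlation given), as a description across samples that share groups. Their part in the Cd300lf result was not tested.

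Cd300a, an ITIM receptor for phosphatidylserine on dying cells, did not pass between the lines. Averaged over the 4 conditions it was 2.01 ± 0.77 TPM in CYP19A1 mice and 3.02 ± 1.38 TPM in Esr1 mice (SD, n = 12 each), a log2 difference of -0.39 ± 0.14 (limma adjusted p = 0.12). The largest difference in a single condition was under tamoxifen, with 0.95, 1.17 and 1.97 TPM in CYP19A1 mice against 2.92, 5.70 and 2.19 TPM in Esr1 mice. Those groups did not overlap, and the difference was -0.91 ± 0.28 (limma adjusted p = 0.21, 1.01% of all genes passing). Its highest sample there, Esr1 replicate 2, was also highest within its group for Cd300lf, Cd300ld, Cd300lb, Cd300c2 and Cd300e, and had the largest macrophage sum of all samples, 912 TPM, and 3.24% ribosomal RNA. The tamoxifen effect on Cd300a in CYP19A1 mice minus that in Esr1 mice was -0.87 ± 0.40 (limma adjusted p = 0.46).

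The activating receptors were Cd300ld, which pairs with the Fc receptor gamma chain, Cd300lb, which signals through DAP12, and Cd300c2, which can use both adaptors. None of the 3 passed in any comparison. Cd300ld had 1.42, 2.00 and 0.61 TPM in CYP19A1 letrozole samples against 2.65, 2.07 and 2.85 TPM in Esr1 letrozole samples, and these groups did not overlap (log2 difference -0.63 ± 0.30, limma adjusted p = 0.65, 0.906% of all genes passing). In Esr1 mice it had those 2.65, 2.07 and 2.85 TPM under letrozole, against 2.39, 0.59 and 1.09 TPM untreated, a difference of 0.65 ± 0.30 (limma adjusted p = 0.18) that was 0.05 without the 3 samples rich in ribosomal RNA, while Cd300lf differed in the other direction in the same samples. A difference between the members was not tested.

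Cd300c2 had the narrowest relative range of the leukocyte members, with a highest level 3.99 times its lowest. It was 1.5 to 5.99 TPM over the 24 samples and showed its largest line difference under tamoxifen, with 2.36, 1.89 and 3.24 TPM in CYP19A1 mice against 2.16, 5.99 and 2.51 TPM in Esr1 mice (-0.30 ± 0.26, limma adjusted p = 0.89). Cd300lb ranged from 0.74 to 3.11 TPM, and its differences between lines stayed between -0.18 and 0.04 on the log2 scale. Cd300e had 0.17, 0.21 and 0.05 TPM in CYP19A1 letrozole samples and 0.32, 0.19 and 0.17 TPM in Esr1 letrozole samples, and was not tested.

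Cd300lg, also called nepmucin, is a sialomucin of small vessels, and it was higher in the CYP19A1 line. Over the 12 samples of each line its lowest, median and highest levels were 21.81, 33.38 and 50.38 TPM in CYP19A1 mice, against 8.41, 22.73 and 40.93 TPM in Esr1 mice. The means were 34.3 ± 8.1 TPM in CYP19A1 mice and 23.6 ± 7.8 TPM in Esr1 mice (SD, n = 12 each), a ratio of 1.45, and the lines overlapped. The difference averaged over the 4 conditions was 0.56 ± 0.16 on the log2 scale (SE, limma adjusted p = 0.029). It was the 1 of 6 members tested that passed, against 7.27% of all genes.

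The difference in Cd300lg was positive in each condition and passed in none alone. At 20 months untreated the levels were 27.42, 25.70 and 38.58 TPM in CYP19A1 mice against 21.43, 8.41 and 17.49 TPM in Esr1 mice, without overlap (0.98 ± 0.31, limma adjusted p = 0.071, 5.27% of all genes passing). At 18 months they were 32.35, 32.85 and 50.38 TPM in CYP19A1 mice against 27.69, 21.01 and 24.65 TPM in Esr1 mice, also without overlap (0.61 ± 0.31, limma adjusted p = 0.64, 1.36% of all genes passing). The lines thus lay apart within each of these ages but overlapped over both. The 27.69 TPM of an Esr1 mouse at 18 months was above the 27.42 and 25.70 TPM of CYP19A1 mice at 20 months. Under tamoxifen the levels were 33.91, 29.97 and 38.78 TPM in CYP19A1 mice against 19.72, 24.04 and 40.93 TPM in Esr1 mice (0.33 ± 0.31, limma adjusted p = 0.91). Under letrozole they were 21.81, 34.22 and 45.34 TPM in CYP19A1 mice against 21.15, 25.70 and 30.72 TPM in Esr1 mice (0.33 ± 0.31, limma adjusted p = 0.99), and both drug comparisons overlapped.

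The lowest Cd300lg value, 8.41 TPM, belonged to the sample with 31.2% ribosomal RNA. Without the 3 samples over 1% ribosomal RNA, an alternative added after seeing the data, the averaged difference was 0.42 and did not pass (limma adjusted p = 0.15), and that at 20 months was 0.47 (limma adjusted p = 0.54). Without the 4 samples high in Cd300ld3 the difference over the remaining 3 conditions was 0.74 (limma adjusted p = 0.019). Leaving out a single sample took the adjusted p past 0.05, to at most 0.06, for replicate 3 of each CYP19A1 group and for Esr1 replicate 2 at 18 months, replicates 1 and 2 with tamoxifen and replicate 1 with letrozole.

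Genes of capillary endothelium moved the same way as Cd300lg. Of 8 such genes 3 were higher in the CYP19A1 line, and all 8 had positive differences, with a median of 0.38 on the log2 scale against 0.00 over all genes. Emcn, an endothelial sialomucin, was 20.2 ± 3.2 TPM in CYP19A1 mice and 13.2 ± 3.1 TPM in Esr1 mice (0.60 ± 0.13, limma adjusted p = 0.0043), and Kdr, a VEGF receptor, was 23.1 ± 4.4 TPM in CYP19A1 mice and 15.9 ± 3.2 TPM in Esr1 mice (0.51 ± 0.11, limma adjusted p = 0.0051). Esam, an endothelial adhesion molecule, was 30.8 ± 4.9 TPM in CYP19A1 mice and 20.4 ± 4.7 TPM in Esr1 mice (0.59 ± 0.11, limma adjusted p = 0.0018). The sum of the list was 167 to 324 TPM over CYP19A1 samples and 92.4 to 240 TPM over Esr1 samples. None of the 8 genes was at 0 in any sample. Over the 24 samples the sum correlated with Cd300lg at r = 0.937, a description of samples that share groups and library composition, and its part in the Cd300lg result was not tested. Other lists differed between the lines too. Of 7 mammary epithelium genes 2 were lower in the CYP19A1 line, Krt5 and Krt14, and all 7 had negative differences. Prg2, the 1 eosinophil gene tested, was lower (limma adjusted p = 7.3e-07), as was 1 of 10 macrophage genes, Mertk. Of 5 dendritic cell genes tested Siglech was higher and Itgax lower. Of 5 adipocyte genes 1 was higher in the CYP19A1 line, Cfd, the adipokine adipsin (1508 ± 504 TPM in CYP19A1 mice and 683 ± 292 TPM in Esr1 mice, limma adjusted p = 0.0016), and 4 had positive differences. Of 3 venule genes tested 2 were lower in it, Ccl21a, a chemokine of lymphoid tissue (1.29 ± 0.90 TPM in CYP19A1 mice and 5.54 ± 4.20 TPM in Esr1 mice, limma adjusted p = 0.0057), and Glycam1. Cd300lg correlated with the adipocyte sum at r = 0.722 and with the venule sum at r = -0.637. Glycam1 made up 3457.85 TPM of the highest venule sum, 3464 TPM, so that correlation largely follows 1 gene. The part of these other lists was not tested either.

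**Figure D4:**
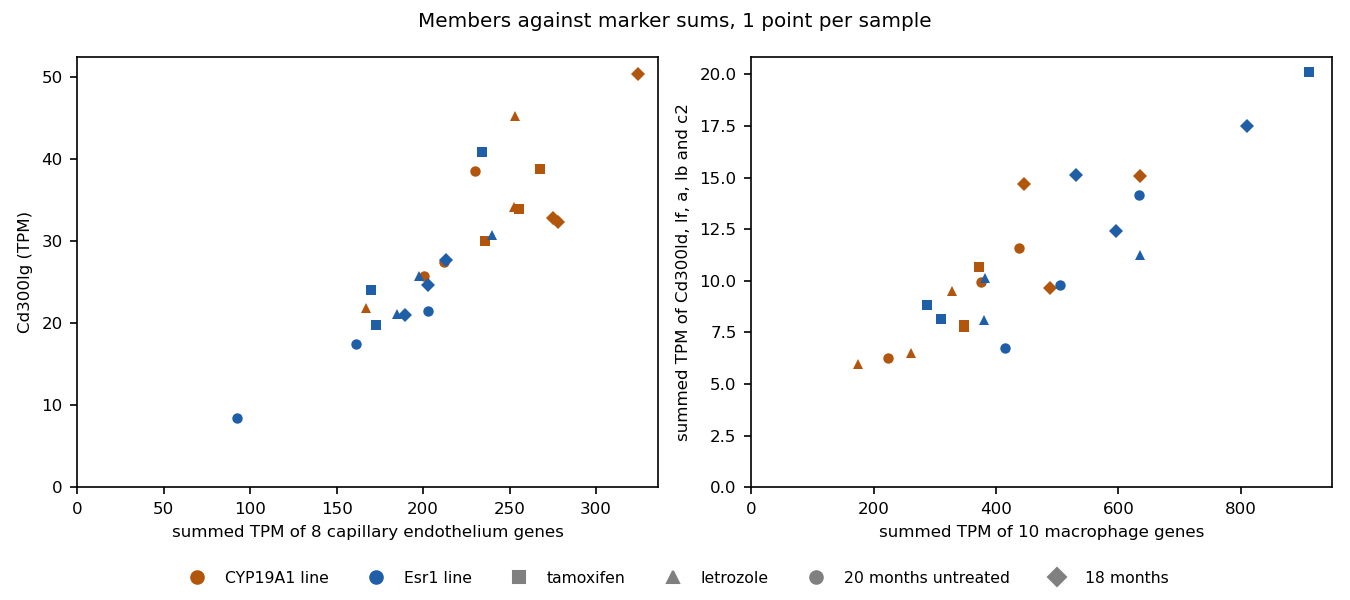
Left, Cd300lg (TPM) against the summed TPM of 8 capillary endothelium genes. Right, the summed TPM of Cd300ld, Cd300lf, Cd300a, Cd300lb and Cd300c2 against that of 10 macrophage genes. Each point is a sample, coloured by line and shaped by condition; both sums rise together in each panel, with r = 0.937 on the left and r = 0.875 on the right over the 24 samples, computed on the log2(TPM + 1) scale.

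**Figure D5:**
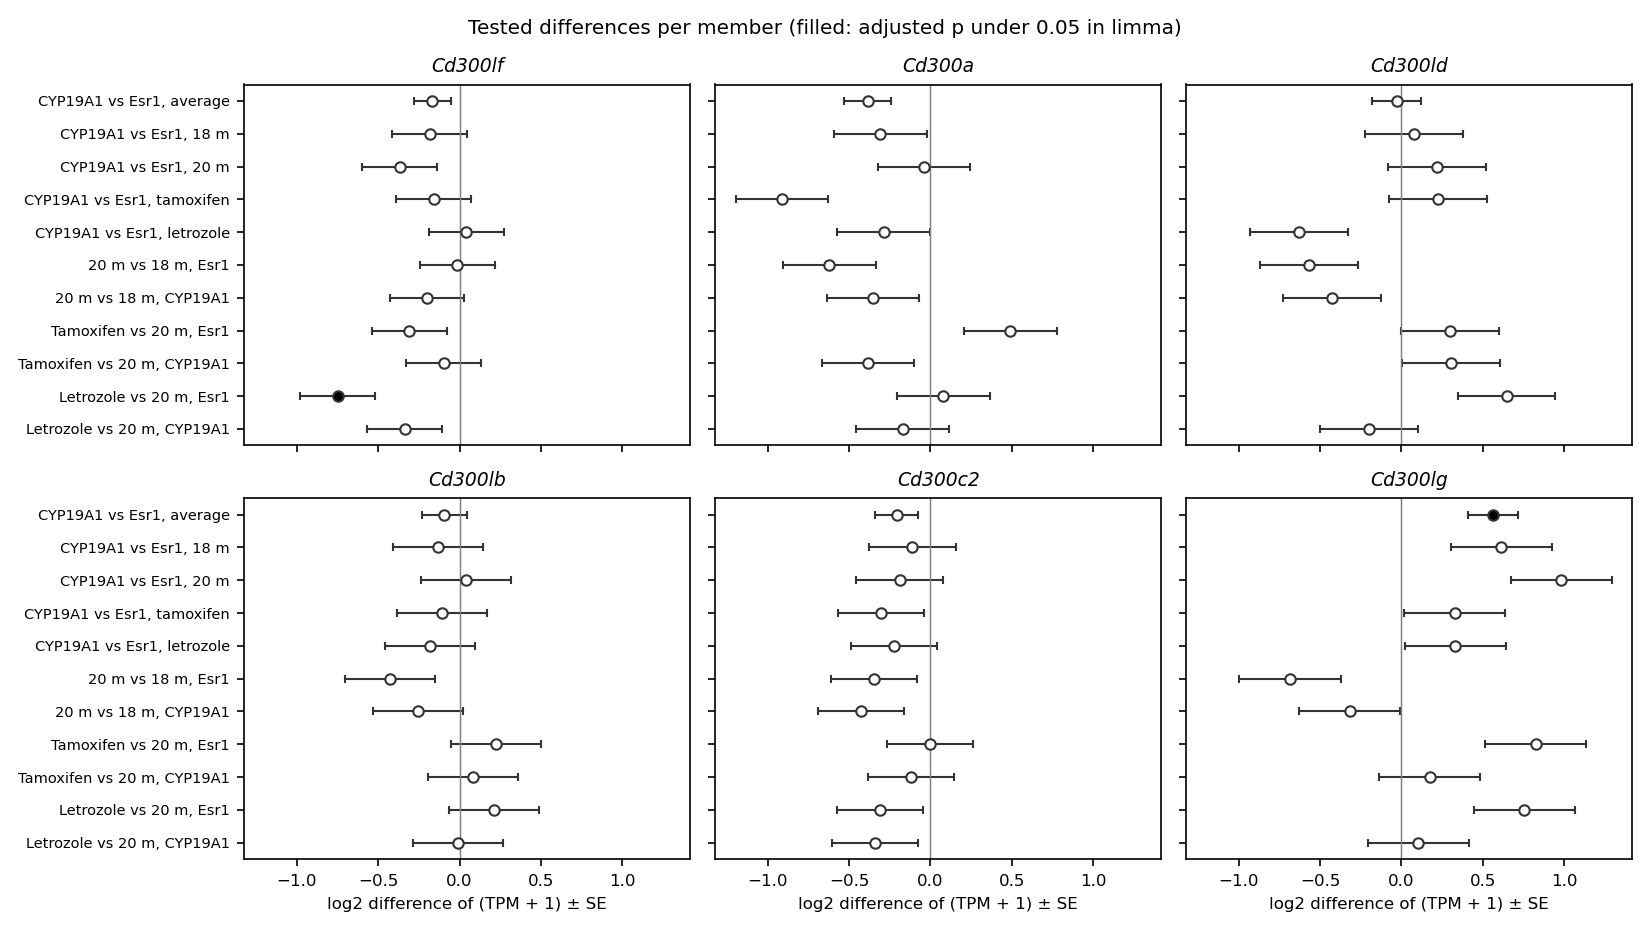
Log2 differences of (TPM + 1) with SE for the 6 members tested in every comparison, where 20 m and 18 m are the untreated 20-month and the 18-month groups and the group named first minus the second is plotted. Filled points pass at adjusted p under 0.05: Cd300lf for letrozole against untreated in Esr1 mice and Cd300lg for the lines averaged over 4 conditions.

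Between 20 and 18 months no member passed in either line. In Esr1 mice the 6 members other than Cd300ld3 and Cd300e all had negative differences, with a median of -0.50 against -0.14 over all genes, and 0.00517% of all genes passed. All 10 macrophage genes (median -0.41), 8 other paired myeloid receptors tested (-0.40) and 8 capillary endothelium genes (-0.28) were negative too. All 8 muscle, 4 T cell and 4 B cell genes had positive differences. No gene of these lists passed, and their part in the members' values was not tested. Cd300a had 3.06, 1.24 and 2.32 TPM at 20 months, against 4.09, 5.30 and 2.42 TPM at 18 months, with overlapping groups (-0.62 ± 0.28, limma adjusted p = 0.73). Cd300lg was 15.8 ± 6.7 TPM at 20 months and 24.5 ± 3.3 TPM at 18 months (-0.68 ± 0.31, limma adjusted p = 0.73, n = 3 each). These 2 members were the only ones of the 6 with an unadjusted limma p under 0.05, which 1214 of all 19325 genes tested had. The 20-month group holds the samples with 31.2% and 3.6% ribosomal RNA. Without the 3 samples rich in it the differences were -0.24 for Cd300a and -0.17 for Cd300lg. Without 20-month replicate 2 alone they were -0.38 and -0.31, and without 18-month replicate 2 that of Cd300a was -0.42.

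In CYP19A1 mice the same 6 members also had negative differences, with a median of -0.33 against -0.23 over all genes, and 9.45% of all genes passed. Cd300c2 had 3.55, 3.43 and 1.61 TPM at 20 months, against 4.62, 3.69 and 3.86 TPM at 18 months (-0.43 ± 0.26, limma adjusted p = 0.29). Its groups did not overlap, and the share of all genes with groups apart was not counted here. No member had an unadjusted limma p under 0.05, which 5666 of all 19325 genes tested had. All 10 macrophage genes had negative differences with none passing. All 4 T cell genes were lower at 20 months. So were 1 of 6 monocyte genes (Cx3cr1), 1 of 8 capillary endothelium genes (Gpihbp1) and 1 of 3 venule genes tested (Madcam1). Of 8 muscle genes 2 were higher, and the muscle sum was 16200 to 27500 TPM at 20 months against 20.9 to 5890 TPM at 18 months. The part of these lists in the members' values was not tested. The age effect did not differ detectably between the lines for any of the 6 members (limma adjusted p = 0.86 to 0.97, 0.00517% of all genes passing). No member was at an unadjusted p under 0.05 there, and 1652 of all 19325 genes tested were.

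Tamoxifen against untreated gave no call for the 6 members tested. In Esr1 mice 1.55% of all genes passed, and 3556 of the 19325 genes tested had an unadjusted limma p under 0.05. Of the 6 members 1 did, Cd300lg, at 19.72, 24.04 and 40.93 TPM under tamoxifen against 21.43, 8.41 and 17.49 TPM untreated (0.83 ± 0.31, limma adjusted p = 0.16). Without the 3 samples rich in ribosomal RNA it was 0.39 (limma adjusted p = 0.64). In CYP19A1 mice 0.16% of all genes passed and no member reached an unadjusted p of 0.05, which 846 of all 19325 genes did. The difference between the lines in the tamoxifen effect passed for 0.0% of all genes. Among members Cd300a alone had an unadjusted p under 0.05, which 2021 of all 19325 genes had.

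For letrozole, beside Cd300lf, Cd300lg did not pass in Esr1 mice, at 21.15, 25.70 and 30.72 TPM under letrozole against 21.43, 8.41 and 17.49 TPM untreated (0.76 ± 0.31, limma adjusted p = 0.13). Without untreated replicate 1, Cd300lg (1.01) and Cd300ld (0.94) both passed at limma adjusted p = 0.041 while Cd300lf did not. Without untreated replicate 2, the sample with 31.2% ribosomal RNA, the differences were 0.38 for Cd300lg and 0.40 for Cd300ld, and without all 3 samples rich in ribosomal RNA they were 0.24 (limma adjusted p = 0.77) and 0.05 (0.96). In CYP19A1 mice 0.0207% of all genes passed, and no member had an unadjusted limma p under 0.05, which 733 of all 19325 genes had. The difference between the lines in the letrozole effect passed for 0.0% of all genes and for no member. No member had an unadjusted p under 0.05 for it, and 2277 of all 19325 genes did.

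The partners through which these receptors signal were measured in every sample. Tyrobp, which encodes DAP12, was 11.64 to 64.30 TPM, Fcer1g, the Fc receptor gamma chain, 4.76 to 31.02 TPM, and Ptpn6, which encodes SHP-1, 3.39 to 15.86 TPM. Of 12 signalling partners none passed in 13 of the 14 comparisons. In CYP19A1 mice at 20 against 18 months 1 of the 12 passed, where 9.45% of all genes did. It was Lyn, a Src family kinase, which was lower at 20 months (12.9 ± 1.6 TPM at 20 months against 23.6 ± 4.6 TPM at 18 months, -0.81 ± 0.21, limma adjusted p = 0.027). Of 13 other paired myeloid receptors 8 could be tested. Averaged over the 4 conditions 1 of the 8 passed between the lines, where 7.27% of all genes did. This was Fcgr3, an activating Fc receptor, lower in the CYP19A1 line (9.99 ± 2.75 TPM in CYP19A1 mice against 16.6 ± 5.8 TPM in Esr1 mice, -0.65 ± 0.16, limma adjusted p = 0.017). The summed TPM of the partner list correlated with the sum of the 5 leukocyte members at r = 0.935.

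The members varied together to different degrees. The 5 leukocyte members, Cd300ld, Cd300lf, Cd300a, Cd300lb and Cd300c2, correlated with each other over the 24 samples at r = 0.196 to 0.844 on the log2 scale, highest for Cd300lb with Cd300ld and lowest for Cd300lf with Cd300ld. Cd300lg correlated with them at -0.265 to 0.338, a range that overlaps the first. Their sum correlated with the macrophage sum at 0.875, the dendritic cell sum at 0.848, the monocyte sum at 0.769, the mammary epithelium sum at 0.539, the neutrophil sum at 0.307 and the mast cell sum at -0.252. The neutrophil markers Ly6g, Camp, Ngp and Retnlg were at 0 in 18, 14, 8 and 2 of the 24 samples. The neutrophil markers S100a8, S100a9, Csf3r and Cxcr2 were at 0 in none, with medians of 2.03, 1.44, 1.255 and 0.12 TPM. The eosinophil marker Epx was at 0 in 10 samples and Prg2 in 7, though Prg2 reached 8.32 TPM. Siglecf and Ccr3, also eosinophil markers, were at 0 in none, with medians of 0.22 and 0.175 TPM.

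The 3 tested genes most like each member, by Pearson correlation of log2(TPM + 1) over the 24 samples, were as follows. Cd300ld was closest to Tmem106a (0.931), Nek6 (0.927) and Clec4a2 (0.926), the last an inhibitory lectin receptor of myeloid cells. Cd300lf was closest to Ezr (0.929), which encodes ezrin, then Havcr2 (0.923), the receptor TIM-3, and Macc1 (0.903). Cd300a was closest to Fhl2 (0.883), P2rx4 and Slc37a2 (0.873 each). Those 3 members had no closest gene in common.

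Cd300lb was closest to Ptafr (0.895), the receptor of platelet-activating factor, then Cd68 (0.88), a lysosomal protein of macrophages, and Ctsl (0.878). Cd300c2 was closest to Far1 (0.931), Capg (0.927) and Pla2g7 (0.925). Cd300lg was closest to Adgrf5 (0.947), an adhesion receptor of endothelium, then Rasip1 (0.918), a regulator of vessel lumens, and Cyp4b1 (0.906). Cd300ld3 was closest to Cd300ld4 (0.985) and Rps2 (0.968), which carry the 4-sample pattern, and then Endou (0.846). These are likenesses across mixed tissue and carry no test.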

How the data were processed

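Gene levels were analysed as TPM for 55487 genes in 24 samples, each column summing to about 1000000. The authors deposited these TPM values to 2 decimals, and per the submitters' processing notes FastQC 0.11.9, Trim Galore 0.6.5, STAR 2.7.9a and RSEM 1.3.1 were used with mm10; what each tool did and which gene models were used are stated in no source used here. Per the labels' protocols, libraries were stranded, random-primed total RNA libraries depleted of ribosomal RNA. TPM is a share of each library, so abundant RNAs shift all other values, and read depth is unknown.

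From these values log2(TPM + 1) was tested with limma 3.58.1 (R 4.3.3; lmFit, contrasts.fit, eBayes with trend and robust), two-sided, over the 19325 genes that 3 or more samples held at 1 TPM or higher. A joint fit of all 24 samples was used with 8 group means, and 14 comparisons were each adjusted by Benjamini-Hochberg over all genes, with a threshold of 0.05. The scale understates changes of low genes. The code was tested on simulated data. P-values measure the spread between the samples called biological replicates. No test of Cd300ld3 is reported, and tamoxifen against letrozole was not tested for any member.

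The members, gene lists and tests were chosen with earlier results of these data known. Genes named are the 8 members, list genes that passed or whose level stands beside a member, and the 3 tested genes most correlated with each member, leaving out pseudogene, Gm and Rik symbols. Promoters were taken from a RefSeq table by symbol (10 of 12 Cd300 genes matched) and aligned with Biopython 1.88. The alternatives were a pseudocount of 0.1, no filter, median-ratio scaling, a muscle covariate, only the compared groups, a replicate block and leaving out samples.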

Additional observations from a re-analysis of the deposited data

How the results depend on the processing

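None of the member differences with an unadjusted limma p under 0.05 changed direction, and the direction of the other differences was not followed. The averaged line comparison, with 1 member passing, had 0 without the filter on low values, 2 with median-ratio scaling (Cd300a joined at -0.39, limma adjusted p = 0.047), 0 without the 3 samples rich in ribosomal RNA and 0 to 1 when leaving out each sample. The line comparison at 20 months, with 0 members passing, had 1 (Cd300lg) with median-ratio scaling, 1 with the muscle covariate, 1 with the replicate block and 0 to 1 when leaving out each sample. Letrozole against untreated in Esr1 mice, with 1 member passing, had 0 without the filter, 0 with the replicate block, 0 with only the compared groups in the fit and 0 to 2 when leaving out each sample. Without the filter more genes are tested; the other causes were not tested. The other 11 comparisons had 0 members passing under all alternatives run. The averaged difference of Cd300lg was 0.42 to 0.74 (adjusted p 0.0078 to 0.15) and that of Cd300lf with letrozole in Esr1 mice -1.32 to -0.61 (adjusted p 0.015 to 0.15). The fit with only the compared groups was not run for the average, which uses all groups. Scaling moved the median of all genes, -0.23 at most before it (20 against 18 months in CYP19A1 mice), to within 0.02 of 0. The replicate numbers did not pair the samples: over 84 same-numbered pairs the correlation of deviations had a median of -0.00273, with 19 over 0.1. With the replicate block the line difference of Cd300lg had an adjusted p of 0.0078, that at 20 months 0.031, and that of Cd300lf with letrozole 0.053.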

Other observations

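The genes that shared the 4-sample pattern of Cd300ld3 are given as values, by the rule set after the values were seen. Among the protein-coding genes were Rps2, the 3 Cd300 genes (Cd300ld3 itself included) and Gm32687, which had 1.34 to 2.34 TPM in the 4 samples and at most 0.22 TPM in the other 20. Among the pseudogenes, 5830417I10Rik on chromosome 3 had 3.62 to 4.01 TPM against at most 0.94 TPM, Gm12070 on chromosome 11 had 1.47 to 2.53 TPM against at most 0.21 TPM, and Nlrp1c-ps on chromosome 11 had 0.60 to 0.88 TPM against at most 0.02 TPM. The long non-coding RNA 2610507I01Rik, on chromosome 11, had 1.32 to 1.72 TPM against at most 0.41 TPM. Reads can be assigned to the wrong copy of such genes, and these levels are uncertain.

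Cd300ld2, which lies inside the RefSeq span of Cd300ld4, did not share the pattern. It had 1.78, 3.72 and 1.55 TPM in Esr1 tamoxifen samples, against 3.64, 2.61 and 1.21 TPM in Esr1 letrozole samples, and 2.72, 0.58 and 2.29 TPM in untreated Esr1 samples of 20 months. Cd300c stayed at or under 0.67 TPM in all 24 samples.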
